A study of Mus musculus with 8 samples.

Results

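The NRF2 antioxidant genes described here were 10 genes of oxidant defence, Nfe2l2, Keap1, Nqo1, Hmox1, Gclc, Gclm, Txnrd1, Srxn1, Slc7a11 and Gsr, picked by symbol from the 22274 genes of the deposited table. All 10 were found and all 10 passed the filter on low counts that kept 13533 genes for testing. They were measured by RNA-seq in primary murine cardiac fibroblasts, the matrix-producing cells of the heart grown in culture, with 4 libraries labelled GFP and 4 labelled OEIRF7. The former received a control vector that encodes GFP and the latter a vector for IRF7, a transcription factor of the interferon response, and both groups were then given TGF-β, which drives fibroblasts to become myofibroblasts, at 5 ng/ml for 24 h. There was no group without TGF-β or without virus, so each value below is a level under TGF-β. The methods and reagent list give adenoviruses with a CMV promoter, EGFP in both and FLAG-tagged human IRF7 in one, whereas the series description names an adeno-associated virus. The labels give no mouse strain or age and do not say whether the libraries of a group came from separate cultures or animals, so the p-values measure the spread between these libraries, which may be technical.

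NRF2, the product of Nfe2l2, is a transcription factor that KEAP1 holds in the cytoplasm and hands to a ubiquitin ligase for destruction. Oxidants and electrophiles modify cysteines of KEAP1, NRF2 then accumulates, pairs with a small MAF protein and binds antioxidant response elements near its target genes. These targets import cystine and build glutathione, run the thioredoxin system, detoxify quinones and break down haem. In heart fibroblasts, where TGF-β signalling uses oxidants made by NADPH oxidases, this program is known as a brake on oxidative stress. Much of NRF2 control acts on the protein, which RNA-seq does not measure.

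Because the antioxidant response element is the sequence through which NRF2 acts, the promoter windows of the members were searched for its core, TGACNNNGC, on both strands. RefSeq windows of GRCm38.p6, from 250 bases before to 50 bases after an annotated start, were matched for 7 of the 10 members, with 9 windows in all because Txnrd1 has 3. Hmox1, Gclc and Gsr had no entry. Of the 9 windows 4 held 1 core each, those of Nfe2l2 and Gclm, that of Srxn1 and 1 of the 3 windows of Txnrd1, against 12.4% of all 32851 windows and 14.2% of the windows of tested genes. These 4 stretches of 30 bases are shown on the strand of the gene, with the core in capitals, and where the core lies on the opposite strand the capitals give its reverse complement:

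Nfe2l2, chr2:75704884-75704913, minus strand, core on the gene strand with its first base at -240 from the start: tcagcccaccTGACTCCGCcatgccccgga

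Gclm, chr3:122245412-122245441, plus strand, core on the opposite strand from -134: cgctcccgggcGCACCGTCAactctcacga

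Txnrd1, chr10:82859103-82859132, plus strand, core on the opposite strand from -92 of its second window: actggatttttGCTTTGTCAttctgacacg

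Srxn1, chr2:152105541-152105570, plus strand, core on the opposite strand from 29 bases into the transcript: ggcagtgggcaGCTAGGTCAgagtgagaca

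No core overlapped the AP-1 site TGANTCA, of which the Srxn1 window held 2 elsewhere and the other 8 windows none. The core of the interferon response element, GAAANNGAAA, to which IRF factors bind, was in none of the 9 windows and in 3.44% of all windows. The windows of Slc7a11, Nqo1 and Keap1 did not hold the antioxidant core, which says only that these letters are not within these 300 bases. A match is a description of the sequence, and binding was not measured here. The members were picked as NRF2 genes, so their share of windows with the antioxidant core, beside that of all windows, tests nothing.

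Mouse Irf7 was at 92.0 to 147 CPM (counts as a share of the TMM-scaled library size) in the libraries labelled GFP and at 14.5 to 16.4 CPM in those labelled OEIRF7. A human transgene is not counted as mouse Irf7, so these counts do not check the labels if the human gene was used, and go against them if the mouse gene was, and directions below are between the libraries as labelled. Libraries held 24454801 to 28658826 counts. The summed level of 7 fibroblast markers was 12935 to 13650 CPM under the label GFP and 11394 to 12003 CPM under OEIRF7, with 4 lower and 1 higher by the edgeR test used below. The collagen gene Col1a1 had means of 4560 and 4070 CPM, Col1a2 of 3700 and 3570 CPM and Col3a1 of 1650 and 1140 CPM. Postn, the gene of the myofibroblast marker periostin, had means of 2630 and 2020 CPM. Dcn was at 595 and 586 CPM, Pdgfra at 122 and 145 CPM and Tcf21, a transcription factor of cardiac fibroblasts, at 58.3 and 23.1 CPM. Markers of other cells were also present. The 8 macrophage markers summed to 274 to 327 CPM and 329 to 370 CPM in the same order, with 3 of the 7 tested higher and 0 lower. The 5 mesothelial markers summed to 145 to 154 CPM under GFP and 89.5 to 93.8 CPM under OEIRF7, with 2 lower and 1 higher. The 5 mural markers, led by Cspg4, summed to 28.0 to 33.3 and 67.3 to 82.5 CPM, with 2 of the 4 tested higher and 1 lower. The 6 endothelial markers overlapped in sum, at 201 to 214 and 203 to 230 CPM, with 3 higher and 1 lower. Of 7 cardiomyocyte markers, Tnnt2 alone passed the filter and Myh6 had at most 1 count in a library. No marker of any list was at 0 counts in all 8 libraries, and the part of these cells in the results was not tested. In bulk RNA, fewer cells of a type and less RNA per cell cannot be told apart.

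In edgeR's quasi-likelihood test, 58.9% of the tested genes had an adjusted p under 0.05, with 29.0% higher and 29.9% lower in the libraries labelled OEIRF7. Of the 10 members, 8 were higher, 1 was lower and 1 was not called. The groups did not overlap in 9 members, against 53.8% of all tested genes. The members were chosen with earlier results of these data known, so these shares only describe them. The median log2 fold change was 0.63 over the members and 0.00 over all tested genes, and 6 members lay above the ninetieth percentile of all genes, 0.59. For each of the 9 members without overlap, an exact permutation test on log2 CPM (two-sided) gave p = 0.029, the smallest that 4 libraries against 4 allow. Groups of this size without overlap always give this value, so it adds nothing to the lack of overlap.

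**Figure D1:**
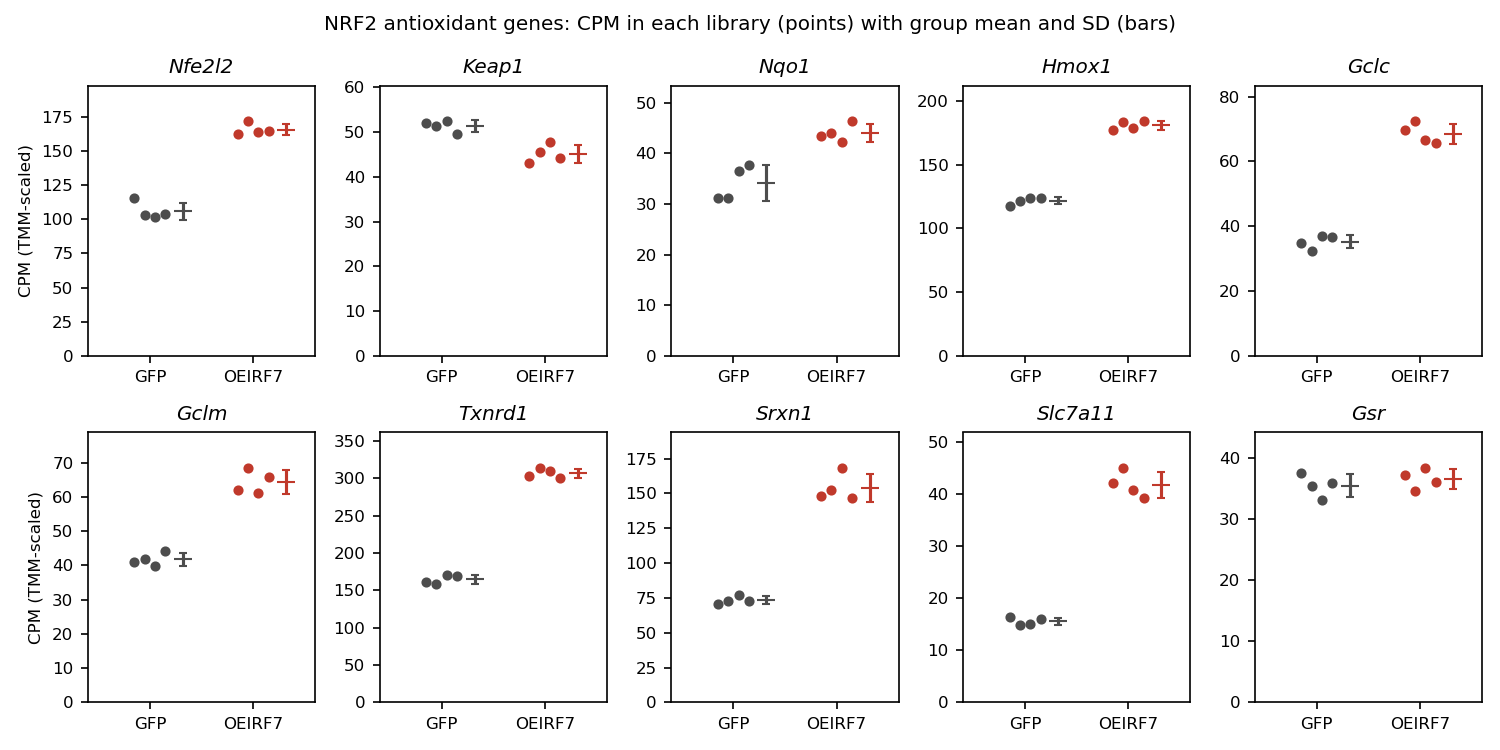
CPM of each NRF2 antioxidant gene (vertical axes from 0) in the 4 libraries labelled GFP (grey) and the 4 labelled OEIRF7 (red), with the group mean and SD as bars beside the points. The groups are apart in 9 panels, with Keap1 the one gene that is lower in red, and overlap for Gsr.

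Nfe2l2 (ENSMUSG00000015839), which encodes NRF2, is a minus-strand gene of chromosome 2 (GRCm38, 75675513 to 75704641). Nfe2l2 was at 115, 103, 101 and 104 CPM in replicates 1 to 4 labelled GFP and at 162, 172, 164 and 165 CPM in those labelled OEIRF7. Every library labelled OEIRF7 was higher, and replicate 1 of the GFP label stood above the other libraries of its group. The mean went from 106 ± 6.33 to 166 ± 4.24 CPM (SD, n = 4 per group), a log2 fold change of 0.64 (standard error 0.042, edgeR adjusted p = 8.56e-09).

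Keap1 (ENSMUSG00000003308), the inhibitor, is a minus-strand gene of chromosome 9 (21229730 to 21239361). Keap1 was at 52.1, 51.4, 52.4 and 49.5 CPM under the label GFP and at 43.0, 45.5, 47.8 and 44.2 CPM under OEIRF7. It was the one member that fell, and its groups lay close without overlap, 49.5 CPM being the lowest under GFP and 47.8 CPM the highest under OEIRF7. The log2 fold change was -0.19 (standard error 0.043, edgeR adjusted p = 0.0018), so Keap1 RNA fell to 0.879 of its level. Factor and inhibitor thus moved in opposite directions, and their ratio is given with the other ratios below.

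Nqo1 (ENSMUSG00000003849), a quinone reductase long used as a reporter of NRF2 activity, lies on chromosome 8 from 107388225 to 107403206. Nqo1 was at 31.2, 31.1, 36.5 and 37.7 CPM under the label GFP and at 43.4, 44.0, 42.3 and 46.4 CPM under OEIRF7. Its GFP libraries fell into a lower and a higher pair and varied more than those of any other member, with a coefficient of variation of 10.2%. The rise was the smallest among the members that rose, at 0.37 on the log2 scale (standard error 0.064, edgeR adjusted p = 0.000181).

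Hmox1 (ENSMUSG00000005413), the inducible haem oxygenase that turns haem into biliverdin, iron and carbon monoxide, lies on the same chromosome from 75093621 to 75100589. Hmox1 was at 118, 122, 124 and 124 CPM under the label GFP and at 177, 184, 179 and 184 CPM under OEIRF7. The libraries of a group were close to each other, with coefficients of variation of 2.18% and 1.91%. The log2 fold change was 0.57 (standard error 0.033, edgeR adjusted p = 1.85e-09). Hmox1 is also a gene of macrophages, whose markers were higher in sum under OEIRF7 as given above, and whether this bears on the Hmox1 level was not tested.

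Glutathione is built from cysteine, which cells import as cystine through the exchanger that Slc7a11 encodes. Slc7a11 (ENSMUSG00000027737; chromosome 3, 49892526 to 50443614, minus strand) had the largest rise of the members. It was at 16.4, 14.9, 15.1 and 16.0 CPM under the label GFP and at 42.1, 45.1, 40.9 and 39.3 CPM under OEIRF7. The groups were far apart, with 16.4 CPM the highest under GFP and 39.3 CPM the lowest under OEIRF7. The log2 fold change was 1.43, a 2.69-fold rise (standard error 0.059, edgeR adjusted p = 7.76e-11), and 362 of the tested genes had a higher one.

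Glutamate-cysteine ligase, the enzyme of the rate-limiting step of glutathione synthesis, is made of a catalytic subunit from Gclc and a modifier subunit from Gclm. Gclc (ENSMUSG00000032350; chromosome 9, 77754535 to 77794485) was at 34.7, 32.5, 36.9 and 36.7 CPM under the label GFP and at 69.8, 72.4, 66.5 and 65.7 CPM under OEIRF7. Its level thus rose 1.95-fold, or by 0.96 on the log2 scale (standard error 0.050, edgeR adjusted p = 6.68e-10). Gclm (ENSMUSG00000028124; chromosome 3, 122245557 to 122270732) was at 41.1, 41.8, 39.9 and 44.3 CPM and at 61.9, 68.5, 61.0 and 65.7 CPM in the same order. The rise of Gclm was 0.62 on the log2 scale (standard error 0.048, edgeR adjusted p = 5.07e-08), and the 95% intervals of both subunits, 0.86 to 1.07 and 0.52 to 0.72, did not overlap.

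Gsr (ENSMUSG00000031584; chromosome 8, 33652523 to 33698163) encodes glutathione reductase, which returns oxidized glutathione to its reduced form. Gsr was at 37.5, 35.4, 33.1 and 36.0 CPM under the label GFP and at 37.1, 34.5, 38.4 and 36.1 CPM under OEIRF7. The ranges of the groups overlapped, and the difference of the means was smaller than the SD within either group. The log2 fold change was 0.04 with a 95% interval from -0.07 to 0.15 (edgeR adjusted p = 0.513; exact two-sided permutation p = 0.43), an interval that lies below the rise of each of the 8 members that rose.

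In the thioredoxin arm, Txnrd1 (ENSMUSG00000020250; chromosome 10, 82833951 to 82897712) encodes cytosolic thioredoxin reductase, which recharges thioredoxin with electrons of NADPH. Txnrd1 was at 161, 159, 171 and 169 CPM under the label GFP and at 304, 314, 310 and 301 CPM under OEIRF7. The groups were far apart beside the spread within each, and the log2 fold change was 0.90 (standard error 0.034, edgeR adjusted p = 3.98e-11). Srxn1 (ENSMUSG00000032802; chromosome 2, 152105516 to 152111376) encodes sulfiredoxin, which rescues peroxiredoxins that peroxide has over-oxidized. Srxn1 was at 70.9, 73.0, 77.2 and 73.1 CPM and at 148, 153, 169 and 147 CPM in the same order. It rose by 1.07 on the log2 scale (standard error 0.046, edgeR adjusted p = 1.3e-10), with replicate 3 highest in both groups.

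Across the 10 members, no library was high or low for all. Replicate 2 labelled OEIRF7 had the highest CPM of its group for 5 members, Nfe2l2, Gclc, Gclm, Txnrd1 and Slc7a11, and the lowest for Gsr. Replicate 3 labelled GFP was highest of its group for 5 members and lowest for 3. Coefficients of variation within a group lay between 1.91% and 10.2%, and the lowest count of a member in any library was 371. GENCODE M21 places other genes on the opposite strand across parts of Keap1, Gclm, Txnrd1 and Slc7a11, and since the strand setting of the counting is not given in the sources used here, reads of such pairs cannot be told apart. On the same strand, Eid3 overlaps Txnrd1 and had at most 44 counts in a library. Predicted genes also share the strand of Nfe2l2, Gclm, Slc7a11 and Gsr within their spans, and the deposited counts do not include these predicted genes.

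**Figure D2:**
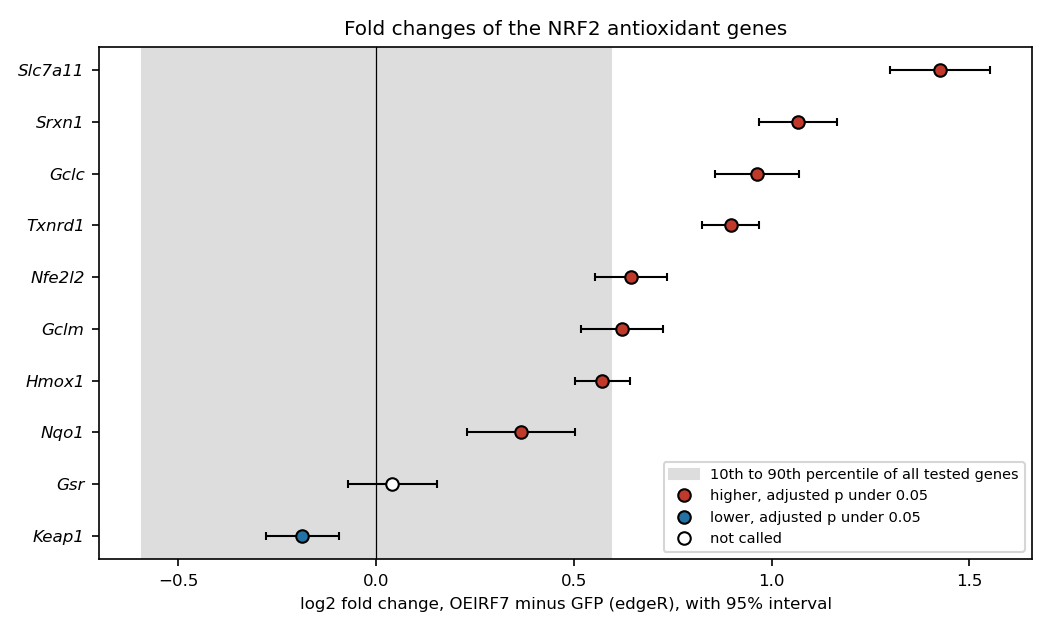
Log2 fold change of each member (horizontal axis, OEIRF7 minus GFP, edgeR) with its 95% interval; the grey band spans the tenth to the ninetieth percentile of all 13533 tested genes, -0.59 to 0.59. Slc7a11 is highest at 1.43, Gsr crosses 0 and Keap1 alone is below it.

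Levels of different genes can be compared per transcript length, for which the deposited FPKM values (fragments scaled to transcript length and library depth) were used. Hmox1 was the most abundant member in both groups, at 76.9 ± 1.72 FPKM under the label GFP and 116 ± 2.33 FPKM under OEIRF7 (SD, n = 4 per group). Txnrd1 followed at 56.2 ± 1.76 and 107 ± 2.04 FPKM, and then Nfe2l2 at 42.4 ± 2.49 and 67.5 ± 1.86 FPKM. Srxn1, Gclm and Nqo1 came next, at 25.9, 25.1 and 21.8 FPKM under GFP, where the ranges of Srxn1 and Gclm overlapped, as did those of Gclm and Nqo1, and at 55.3, 44.1 and 28.6 FPKM under OEIRF7, where none of these neighbours overlapped. Slc7a11 was the least abundant in both groups, at 1.67 ± 0.074 and 4.58 ± 0.285 FPKM, despite its rise. Gclc changed its place in the order. It was ninth under GFP at 10.2 FPKM, below Keap1 at 16.1 and Gsr at 13.1 FPKM with no overlap to its neighbour Gsr, and seventh under OEIRF7 at 20.2 FPKM, above Keap1 at 14.4 and Gsr at 13.8 FPKM, whose own ranges overlapped there.

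**Figure D3:**
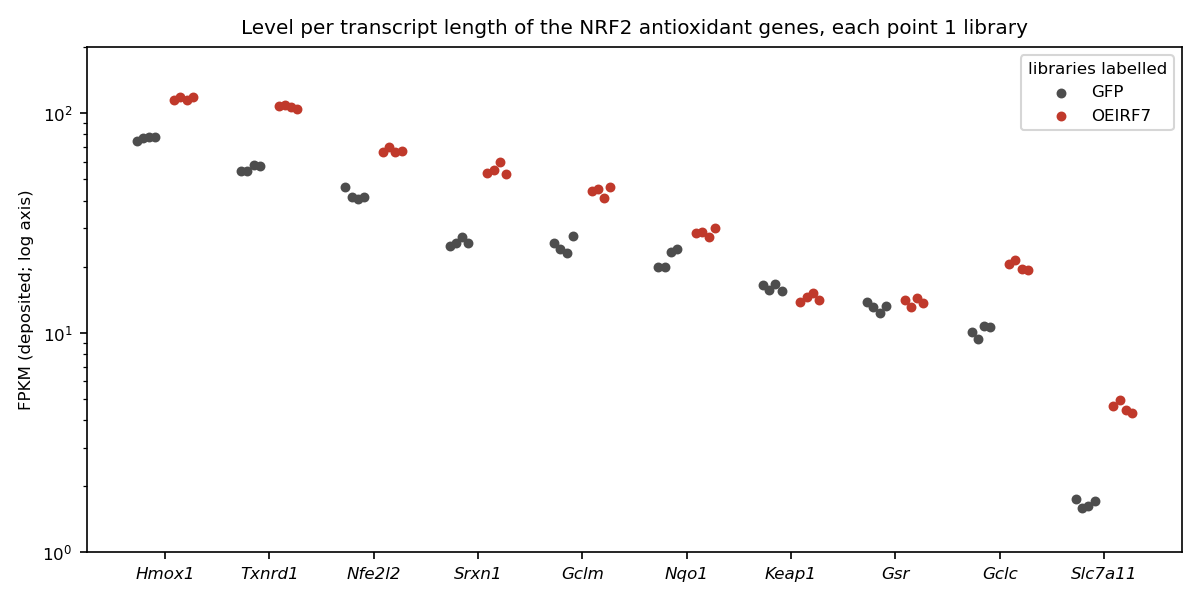
Deposited FPKM (log axis) of each member in each of the 8 libraries, GFP in grey and OEIRF7 in red, ordered by the mean under the label GFP. Hmox1 is highest and Slc7a11 lowest in both groups, and Gclc passes Keap1 and Gsr under OEIRF7.

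Ratios of partner genes within a library, which do not depend on scaling between libraries, were compared for 4 pairs by the exact two-sided permutation test of log2 ratios of FPKM, with adjustment over the 4. Nfe2l2 to Keap1, the factor over its inhibitor, was 2.80, 2.63, 2.43 and 2.69 under the label GFP and 4.79, 4.83, 4.38 and 4.75 under OEIRF7. The means were 2.64 ± 0.153 and 4.69 ± 0.207 (SD, n = 4 per group), a difference of 0.83 on the log2 scale (exact permutation p = 0.029, adjusted 0.038). Txnrd1 to Gsr, the thioredoxin over the glutathione reductase, went from 4.28 ± 0.333 to 7.74 ± 0.411, a difference of 0.86 on the log2 scale with the same exact p. These groups did not overlap in either ratio. Without overlap the exact permutation p is always 0.029, so it adds nothing to the lack of overlap. For Nfe2l2 to Keap1 the lack of overlap also follows from the members, whose own groups were apart in opposite directions.

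Slc7a11 to Slc3a2, the light over the heavy chain of the cystine exchanger, rose from 0.0257 ± 0.0017 to 0.0592 ± 0.00411 (SD, n = 4 per group; exact permutation p = 0.029, adjusted 0.038). Its groups did not overlap, and this p is again the smallest that groups of this size allow. Slc3a2, which other amino acid transporters also use as their heavy chain, rose by 0.23 on the log2 scale (edgeR adjusted p = 2.7e-05). Gclc to Gclm overlapped between the groups. It was 0.390, 0.389, 0.464 and 0.384 under the label GFP and 0.467, 0.474, 0.474 and 0.421 under OEIRF7, a difference of 0.18 on the log2 scale (exact permutation p = 0.057, adjusted 0.057). With counts in place of FPKM the difference was 0.34 and passed the threshold (exact permutation, adjusted p = 0.029). Gclm rose by 0.81 with limma on log2(FPKM + 0.1), beside 0.62 with edgeR on counts.

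**Figure D4:**
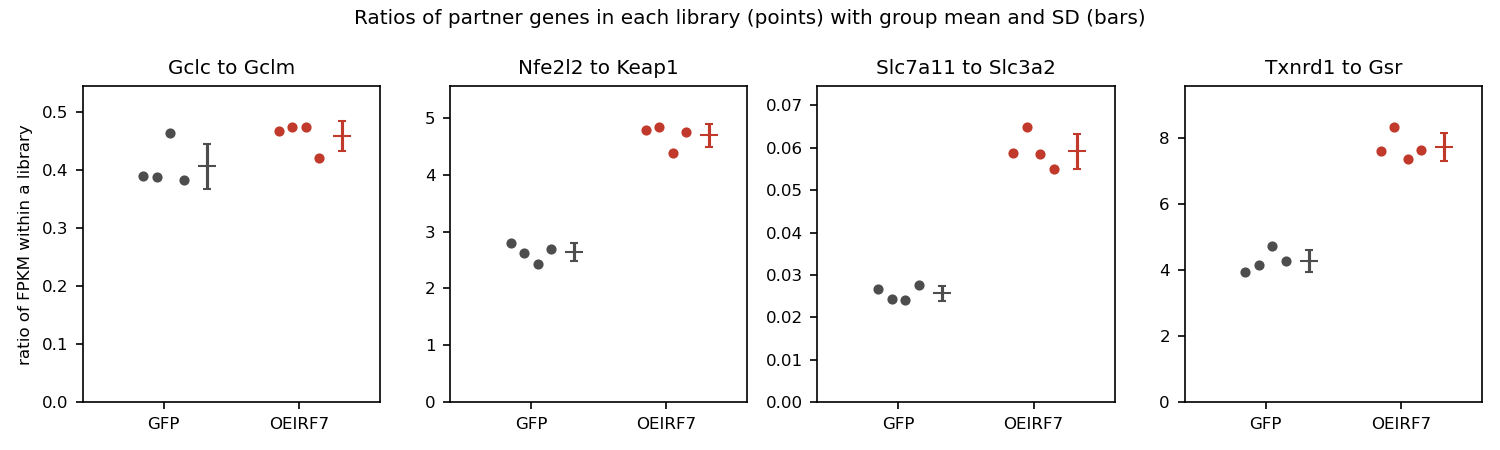
Ratio of the FPKM of 2 partner genes in each library (points; vertical axes from 0), with group mean and SD as bars. Nfe2l2 to Keap1, Slc7a11 to Slc3a2 and Txnrd1 to Gsr are apart between the labels, and Gclc to Gclm overlaps.

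Around these members, 103 further genes in 8 lists cover the regulators of NRF2 and the redox systems it feeds. Of 101 tested, 42 were higher (41.6%) and 27 lower (26.7%) under the label OEIRF7 by the same edgeR test, beside 29.0% and 29.9% of all tested genes, and their median log2 fold change was 0.11. The lists were written with earlier results of these data known, so the shares in this and the next lists describe them and test nothing. Of 13 regulators and partners of NRF2, 5 were higher and 5 lower, with a median of -0.01. Maff, a small MAF partner, had means of 112 ± 7.72 and 218 ± 13.2 CPM (SD, n = 4 per group), a log2 rise of 0.96. Sqstm1, the p62 adaptor that takes KEAP1 to autophagy and is itself a target of NRF2, rose by 0.66. Gsk3b, a kinase that marks NRF2 for destruction, fell by 0.57 on the log2 scale. The other called genes of this list changed less. Bach1, Mafk and Mafg rose by 0.26, 0.21 and 0.18. Rbx1, Cul3, Fbxw11 and Dpp3 fell by 0.22, 0.13, 0.12 and 0.10, Cul3 with overlapping groups. Nfe2l1, the related factor NRF1, had a log2 fold change of 0.00 at 121 and 129 FPKM (edgeR adjusted p = 0.925).

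Among 23 tested further targets of NRF2, 13 were higher and 6 lower, with a median log2 fold change of 0.24. Ugdh, which makes UDP-glucuronate, had means of 208 ± 12.1 and 594 ± 11.0 CPM, a log2 rise of 1.52, and Taldo1, transaldolase of the pentose phosphate pathway, rose by 1.47 (SD, n = 4 per group). Of the other pentose phosphate genes in the list, Pgd and Tkt rose by 0.62 and 0.15, and G6pdx fell by 0.46 on the log2 scale. Gsta1, a glutathione transferase, rose by 2.30 but was below 3 CPM in both groups on average. The list did not move as one, since Gstm1, another glutathione transferase, fell by 1.17 in log2 terms (191 and 86.5 FPKM), and Ephx1, microsomal epoxide hydrolase, fell by 0.30.

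Of 17 genes that make, use or break down glutathione, 6 were higher, 5 lower and 6 not called, with a median of 0.00. Ggct, a glutamylcyclotransferase of the glutathione cycle, rose by 1.72 and Gsto1, an omega-class transferase, rose by 0.73 on the log2 scale. Ggt5, a gamma-glutamyltransferase with under 5 CPM, fell by 1.12. Gpx8, a peroxidase of the endoplasmic reticulum, rose by 0.36, whereas Gpx4, which reduces lipid peroxides, had a log2 fold change of 0.00 at 215 and 219 FPKM (edgeR adjusted p = 0.964).

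Of 14 genes of thioredoxins, peroxiredoxins and sestrins, 8 were higher and 3 lower, with a median log2 fold change of 0.17. Prdx6 rose by 1.07, with means of 92.9 ± 5.25 and 194 ± 7.83 CPM (SD, n = 4 per group), and the abundant Prdx1, Prdx5 and Prdx2, which remove peroxide, rose by 0.40, 0.25 and 0.18. Sesn3 and Sesn1, sestrins of the stress response, fell by 0.57 and 0.48 on the log2 scale.

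Genes of superoxide dismutases, catalase and NADPH oxidases were mostly not called. Of 5 genes for superoxide dismutases, their copper chaperone and catalase, Cat rose by 0.17 and Sod3, the extracellular dismutase, fell by 0.16 on the log2 scale with overlapping groups, while Sod1 had a log2 fold change of -0.03 (edgeR adjusted p = 0.528). Of 8 tested genes of NADPH oxidase complexes, 6 were not called. Nox4, the main oxidase of fibroblasts, fell by 0.20 with overlapping groups (edgeR adjusted p = 0.0149). Rac1 and Cyba had log2 fold changes of -0.01 and -0.05 and were not called.

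Haem and iron genes, which stand around Hmox1, held 6 higher and 4 lower of 12, with a median log2 fold change of 0.28. Blvrb, a biliverdin reductase, rose by 1.24 and Slc40a1, the iron exporter ferroportin, rose by 1.94, with low means of 2.12 ± 0.332 and 8.16 ± 1.81 CPM (SD, n = 4 per group). Tfrc, the transferrin receptor, rose by 0.41 and Alas1, the first enzyme of haem synthesis, rose by 0.30. The ferritin chains went opposite ways. Fth1 rose by 0.25 (1048 and 1271 FPKM) and Ftl1 fell by 0.15 on the log2 scale (2089 and 1913 FPKM).

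Slc7a11 is also a target of ATF4, the factor of the amino acid response, and 9 genes of that branch held 2 higher and 2 lower. Atf4 itself had a log2 fold change of 0.06 (edgeR adjusted p = 0.198) and Nupr1 had 0.06 (edgeR adjusted p = 0.54). Asns and Phgdh, enzymes of asparagine and serine synthesis, fell by 0.34 and 0.50, while Psat1, of the same serine pathway, rose by 0.22 with overlapping groups and Ddit3 rose by 0.12 on the log2 scale. RNA-seq does not measure ATF4 protein, and whether ATF4 bears on the Slc7a11 level was not tested.

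**Figure D5:**
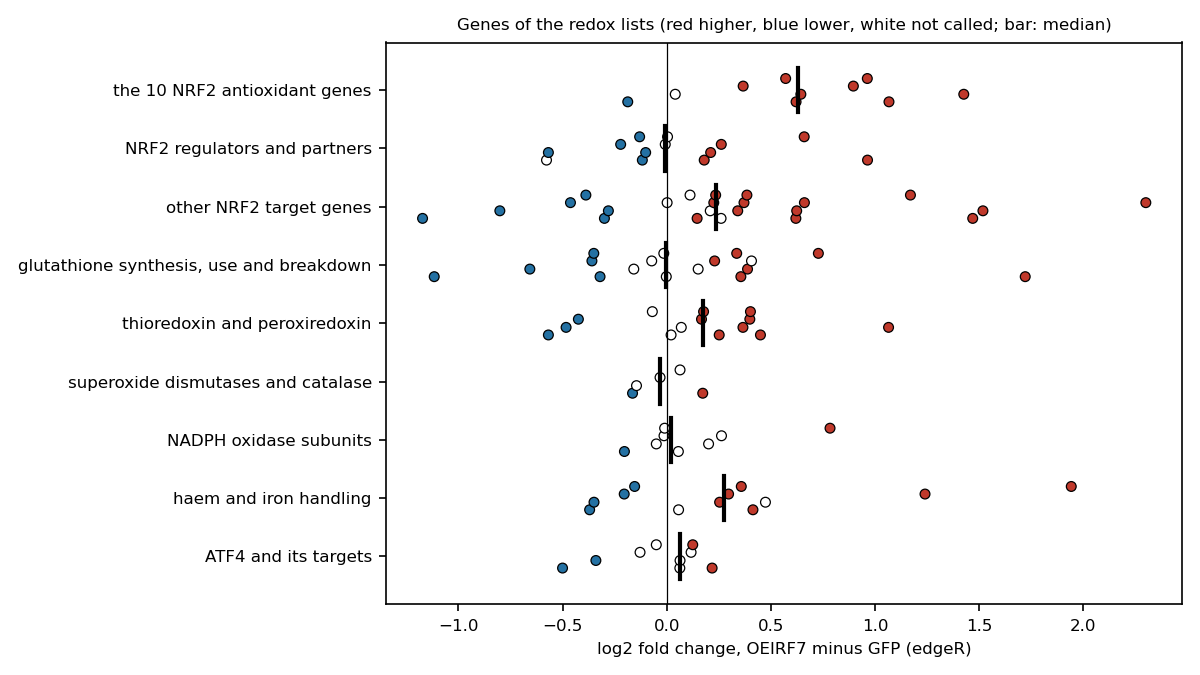
Log2 fold change (horizontal axis, OEIRF7 minus GFP, edgeR) of the 10 members and of the tested genes of the 8 further lists, 1 point per gene, red where higher, blue where lower and white where not called, with the median as a bar. The members' median is 0.63, and those of the lists lie between -0.03 and 0.28.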

How the data were processed

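Raw read counts per gene and FPKM were deposited by the authors, who trimmed reads with Trimmomatic, mapped to GRCm38 with HISAT2, counted with HTSeq-count and computed FPKM with Cufflinks; versions and the strand setting of the counting are not given in the sources used here. FPKM are normalized for length and depth. The methods name a stranded TruSeq kit and the labels a SMARTER kit. The authors' group means, fold change, p-value and FDR columns were not used. In 121 symbols of the table the letters nc had become GFP, and names were restored by Ensembl identifier.

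Counts of all 22274 genes were analysed with edgeR 4.0.16 in R 4.3.3 (filterByExpr, TMM, glmQLFit, glmQLFTest, no covariate), with Benjamini-Hochberg adjustment over 13533 tested genes. Standard errors are the log2 fold change divided by the root of the F statistic. Log2 CPM used a prior count of 2. Sequences came from RefSeq (GRCm38.p6) and positions from GENCODE M21. The fits were tested on simulated data. Alternatives were DESeq2 1.42.0, limma 3.58.1 on log2(FPKM + 1) and log2(FPKM + 0.1), other scalings and filters, the replicate number as a block, and each library left out.

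The members and lists were chosen with earlier results of these data known. Named are all members, Irf7, the partners in ratios, cell markers, and in each list the 3 called genes that changed most and the 3 with the highest FPKM, except 1 gene that is not reported here.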

Additional observations from a re-analysis of the deposited data

Results flagged for a closer look

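Of 30 groups of 4 libraries (10 members and Irf7 in CPM, and 4 ratios), 2 held a library whose gap to the nearest was large beside the range of its group by Dixon's criterion, where about 1 group in 20 is expected to by chance. Both were of the Gclc to Gclm ratio of FPKM. Replicate 3 labelled GFP was at 0.464, above the next value of 0.390, and replicate 4 labelled OEIRF7 was at 0.421, below the next value of 0.467. These libraries make the groups overlap in that ratio. The cause was not tested.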

How the results depend on the processing

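The 10 members kept their direction and their side of the threshold under all 16 alternatives each. Their ranges of log2 fold change included 1.06 to 1.46 for Slc7a11, lowest with limma and a pseudocount of 1 FPKM, which shrinks changes of low genes, 0.59 to 0.81 for Gclm and -0.22 to -0.15 for Keap1, whose highest adjusted p was 0.0165. The difference in the log2 ratio of Gclc to Gclm was 0.18 with FPKM and 0.34 with counts, where it passed the threshold. Same-numbered libraries had correlations of 0.0792 to 0.138 in their deviations from the group means. These are low, yet every GFP library correlated best with its own number, and whether the numbers mark pairs is not known. With the replicate block edgeR called 8211 genes in place of 7969 and 9 members as before. With the replicate block, the exact sign-flip permutation test within numbers gave p = 0.125, the smallest that 4 pairs allow, for each of the 4 ratios, so the log2 differences of 0.83 (Nfe2l2 to Keap1), 1.21 (Slc7a11 to Slc3a2) and 0.86 (Txnrd1 to Gsr) could not pass the threshold there. With each library left out in turn these 3 ratios passed it (exact permutation test, adjusted p = 0.038), and Gclc to Gclm did not (adjusted p 0.057 to 0.17).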

Other observations

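Terms of the deposited table give wider groups around the members. They were chosen after the members' values were seen, and the counts are those of the same edgeR test, which called 29.0% of all tested genes higher and 29.9% lower under the label OEIRF7. Of 28 tested genes with the term cell redox homeostasis, 16 rose (57.1%) and 3 fell (10.7%), with a median log2 fold change of 0.16, and 5 of them are members, Nfe2l2, Nqo1, Gclc, Txnrd1 and Gsr. Of 119 tested genes with the term response to oxidative stress, which holds 7 members, 45 were higher (37.8%) and 41 lower (34.5%), with a median of 0.05. Of 55 tested genes in the KEGG pathway of glutathione metabolism, 19 were higher (34.5%) and 20 lower (36.4%), with a median of 0.04, and 3 of them are members, Gclc, Gclm and Gsr. Of 53 tested genes with the term glutathione metabolic process, which holds 4 members, 13 were higher (24.5%) and 17 lower (32.1%), with a median of 0.00.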
